A study of Mus musculus with 6 samples.

Results

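The genes described here are 8 genes of mitochondrial fatty acid oxidation and its control in mouse intestinal crypts: Cpt1a, Acadm, Acadl, Acadvl, Hadha, Hadhb, Ppara and Pdk4. They were found by name, as the array probes whose accession belongs to 1 of these symbols, and measured values played no part in that match. The choice of these genes and of the related lists was made with earlier results of these data known. The 8 genes had 10 probes among the 56605 on the array, and all 8 were among the 13496 genes tested. None of the 8 is itself an enzyme of ketone body synthesis, whose genes are described from a separate list.

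Fatty acids enter mitochondria bound to carnitine, a step that Cpt1a controls in most tissues other than muscle. Inside, an acyl-CoA dehydrogenase chosen by chain length opens each round of beta-oxidation, and the trifunctional protein of Hadha and Hadhb completes it for long chains. Ppara is the fatty-acid-activated nuclear receptor that drives many of these genes during fasting, and Pdk4 limits the entry of pyruvate into the mitochondrial fuel supply. In the intestine the pathway is known from absorptive cells and from stem cells of the crypt base.

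The 3 control samples were crypts isolated from mice with floxed Arid1a alleles (Arid1a f/f). The 3 knockout samples came from Villin-Cre; Arid1a f/f mice. Both groups thus carry the f/f alleles and differ by the Cre transgene, which the Villin promoter directs to intestinal epithelium. The strain is given as mixed in every sample, and the labels used here give no age. Nothing says that each sample is a separate animal, so the tests weigh differences against a spread between samples that may be technical. Titles and descriptions place knockout 2 with the knockouts and control 3 with the controls, whereas source name and genotype place each in the opposite group; titles were followed. RNA of each sample was read on a one-colour array of its own. A level below is the log2 ratio of a probe's signal to the 75th percentile of its array, and 3 values in a row are replicates 1 to 3.

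Arid1a, the deleted gene, read 3.71, 3.47 and 4.01 in the controls and 2.20, 2.07 and 2.51 in the knockouts, so both disputed arrays lay with the group of their title. Controls 1 and 2 and knockouts 1 and 2 shared a slide and a scan day, and control 3 and knockout 3 shared another. The share of probes clearly over background was 41.7% to 54.7% per array. Among all genes 14.9% passed limma's test at an adjusted p under 0.05 (Benjamini-Hochberg), 982 higher and 1029 lower in the knockout. Centring arrays on their median instead gave 560 higher and 1389 lower, with the median gene at -0.26. With the reported scaling and no adjustment, 2194 of the 13496 genes were higher and 2425 lower at p under 0.05 in limma. Unadjusted counts for gene lists below are to be read beside these. All 8 epithelial markers, such as Epcam, Cdh1 and Krt8, exceeded background on 6 of 6 arrays.

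Of the 8 genes, 1 rose in the knockout, Acadl, and 7 did not pass. Acadl makes 12.5% of the 8, where 14.9% of all genes passed, 7.28% as higher and 7.62% as lower. By probe, 1 of 10 passed, where 10.3% of all probes did. Log2 fold changes were positive for 5 genes and negative for 3, with a median of 0.39 beside -0.012 over all genes tested. Every knockout lay above every control for 3 of the 8, Acadl, Acadvl and Hadhb (19% of all genes), and below for 0 (20.7% of all genes; 39.7% in either direction). For Hadhb this held on its brighter probe only. All 10 probes exceeded background on all 6 arrays. In bulk RNA of this kind, fewer cells of a type and less RNA per cell cannot be told apart.

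**Figure D1:**
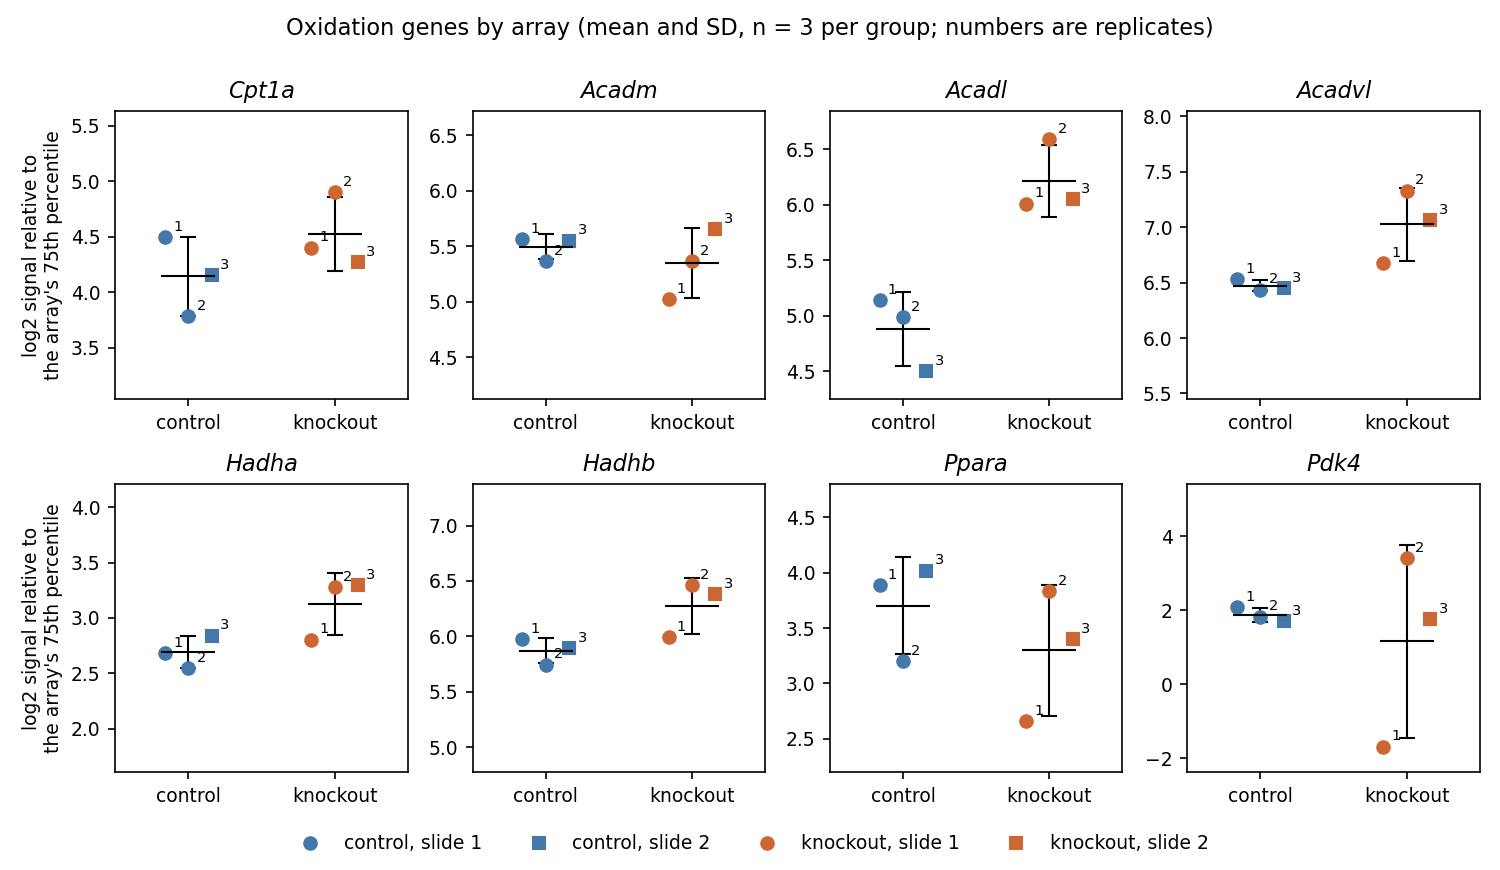
Level on the log2 scale, with the 75th percentile of each array at 0 (y axis), of the 8 oxidation genes in 3 control and 3 knockout arrays; points are arrays numbered by replicate, shapes are slides, and bars are mean and SD. The knockout points of Acadl, Acadvl and Hadhb (brighter probe) all lie above the control points, and knockout 1 is the lowest knockout for every gene but Cpt1a. The y axis of Pdk4 spans a wider range than the others.

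Cpt1a encodes the liver-type carnitine palmitoyltransferase of the outer mitochondrial membrane, the committed step of fatty acid import. It read 4.50, 3.78 and 4.15 in the controls and 4.40, 4.90 and 4.27 in the knockouts. The groups overlapped, with control 1 above knockouts 1 and 3. The log2 fold change was 0.38 ± 0.26 (SE, n = 3 per group; 95% interval -0.23 to 0.99; limma adjusted p = 0.320), 0.51 within the first slide and 0.12 within the second.

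Of 10 measured genes of the carnitine shuttle other than Cpt1a, 0 rose and 1 fell in limma (2 higher and 2 lower at an unadjusted p under 0.05). Slc22a4, an organic cation transporter, read 0.67, 0.75 and 0.97 in the controls and -0.30, -0.40 and -0.12 in the knockouts. It was lower in every knockout, with a log2 fold change of -1.07 ± 0.16 (limma adjusted p = 0.0101). Slc22a5, the carnitine uptake transporter, had 1.04 ± 0.30, and Slc25a20, the carrier that exchanges acylcarnitine for carnitine across the inner membrane, had 1.02 ± 0.31. Neither passed (limma adjusted p = 0.0599 and 0.0729), although all knockouts lay above all controls for both; they were singled out after their values were seen. Without knockout 1, 3 of the 10 rose and 1 fell, in a setting where 29.8% of all genes passed.

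The acyl-CoA dehydrogenases take fatty acids of different length: Acadm medium, Acadl long and Acadvl very long chains. Acadl read 5.14, 4.99 and 4.50 in the controls and 6.01, 6.59 and 6.05 in the knockouts. The groups were separate, and the gap between them was wider than the range within either. Acadl rose by 1.34 ± 0.25 on the log2 scale, a 2.53-fold difference (SE, n = 3 per group; 95% interval 0.75 to 1.93; limma adjusted p = 0.0180). The rise was 1.24 within the first slide and 1.55 within the second.

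The Acadl call depended on single arrays: it was lost on leaving out control 2 (limma adjusted p = 0.0597), control 3 (0.0576) or knockout 2 (0.0514), and kept on leaving out any of the other 3. It was also lost on the first slide alone (adjusted p = 0.0817) and with no filter on dim probes (adjusted p = 0.0631). Dropping both disputed arrays left a difference of 0.97 (limma adjusted p = 0.124), and grouping by source name and genotype turned it to -0.053.

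Acadvl was nearly constant among controls, at 6.53, 6.44 and 6.45, and read 6.68, 7.33 and 7.07 in the knockouts. The groups did not overlap, but knockout 1 stood only just above control 1. Its log2 fold change was 0.55 ± 0.20 (95% interval 0.078 to 1.03; limma adjusted p = 0.106); leaving out knockout 1 made it 0.73, which passed (0.0237). Acadm read 5.56, 5.36 and 5.55 in the controls and 5.02, 5.37 and 5.65 in the knockouts. Here the controls lay between knockout 1, the lowest array, and knockout 3, the highest. The Acadm log2 fold change was -0.15 ± 0.20 (95% interval -0.62 to 0.33; limma adjusted p = 0.637).

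The ratio of these enzymes' signals within an array shows whether they moved by the same amount. Acadl over Acadm, as a log2 ratio, was -0.42, -0.38 and -1.05 in the controls and 0.99, 1.22 and 0.39 in the knockouts, a difference of 1.49 between group means. For Acadl over Acadvl the difference was 0.79, and for Acadvl over Acadm 0.70. In each of these 3 ratios the knockouts lay wholly above the controls. They are not separate results, since the first log2 ratio is the sum of Acadl over Acadvl and Acadvl over Acadm. A two-sided exact permutation test gave p = 0.10 for each, the smallest that 3 arrays against 3 allow, and 0.133 after Benjamini-Hochberg adjustment over the 4 ratios computed.

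The promoter windows of these 3 dehydrogenases are shown because the genes share a reaction while Acadl alone among them passed the test. Each runs from 250 bases before the annotated start to 50 after it, from RefSeq on GRCm38.p6, written 5′ to 3′ on the gene's strand. Capitals mark the GC box GGGCGG and the nuclear receptor unit AGGTCA, searched on both strands.
Acadl, chr1:66863260-66863559, minus strand: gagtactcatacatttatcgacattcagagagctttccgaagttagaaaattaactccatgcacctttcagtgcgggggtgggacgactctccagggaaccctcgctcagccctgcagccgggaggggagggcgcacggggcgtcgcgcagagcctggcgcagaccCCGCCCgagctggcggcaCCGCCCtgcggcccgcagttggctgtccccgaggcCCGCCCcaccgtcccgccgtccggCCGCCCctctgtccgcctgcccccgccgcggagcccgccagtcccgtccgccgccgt
Acadvl, chr11:70015379-70015678, minus strand: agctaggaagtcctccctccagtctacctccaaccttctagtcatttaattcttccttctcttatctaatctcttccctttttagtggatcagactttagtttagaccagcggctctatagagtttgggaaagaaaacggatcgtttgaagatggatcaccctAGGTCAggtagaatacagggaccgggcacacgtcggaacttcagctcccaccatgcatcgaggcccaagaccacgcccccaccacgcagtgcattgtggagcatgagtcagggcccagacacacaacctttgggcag
Acadm, chr3:153944594-153944893, minus strand: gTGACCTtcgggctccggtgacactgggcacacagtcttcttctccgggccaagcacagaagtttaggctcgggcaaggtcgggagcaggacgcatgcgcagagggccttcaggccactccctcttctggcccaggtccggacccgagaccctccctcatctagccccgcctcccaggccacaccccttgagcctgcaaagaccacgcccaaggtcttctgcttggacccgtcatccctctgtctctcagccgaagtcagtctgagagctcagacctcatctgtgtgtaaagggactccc

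The Acadl window held 4 GC boxes, at -84, -66, -31 and -7 from the start, and no AGGTCA unit. Acadvl and Acadm held no GC box and 1 AGGTCA unit each, at -87 and -249. GC boxes occur in 35.7% of the 32851 windows in the table and AGGTCA in 16.3%. Over the 8 genes, 5 windows held a GC box (Cpt1a, Acadl, Hadha, Hadhb and Ppara) and 3 held AGGTCA (Cpt1a, Acadm and Acadvl). The windows of Hadha and Hadhb overlap, and the only GC box of Hadha is the same bases as the Hadhb box at -90. The direct repeat of AGGTCA with 1 base between its copies, which PPAR and RXR bind as a pair, was in 0 of the 8 windows and in 0.0396% of all. These are matches of letters in a short window, and binding was not measured.

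Hadha and Hadhb encode the alpha and beta subunits of the trifunctional protein. Hadha read 2.68, 2.55 and 2.84 in the controls and 2.80, 3.28 and 3.30 in the knockouts. Hadhb, on its brighter probe, read 5.98, 5.75 and 5.90 in the controls and 5.99, 6.46 and 6.38 in the knockouts. In both genes knockouts 2 and 3 were above all controls, while knockout 1 lay near the highest control. The log2 fold changes were 0.44 ± 0.19 for Hadha (95% interval -0.027 to 0.90; limma adjusted p = 0.164) and 0.41 ± 0.18 for Hadhb (95% interval -0.029 to 0.84; limma adjusted p = 0.167). The dimmer Hadhb probe gave 0.45, but on it the groups overlapped, with knockout 1 below control 3. Its signal there was 2193 against a 75th percentile of 291.7 in knockout 1, and 2235 against 290.0 in control 3. Both passed without knockout 1, at 0.60 (limma adjusted p = 0.0408) and 0.55 (0.0459).

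The log2 ratio of Hadha to Hadhb stayed within a span of 0.24 over all 6 arrays. Its group means differed by 0.030 (exact permutation test, two-sided, p = 0.80). The genes lie head to head, with starts 273 bases apart, so their windows share 228 bases. The pair is printed to show this overlap: capitals mark the shared bases, which read as reverse complements of each other.
Hadha, chr5:30154931-30155230, minus strand: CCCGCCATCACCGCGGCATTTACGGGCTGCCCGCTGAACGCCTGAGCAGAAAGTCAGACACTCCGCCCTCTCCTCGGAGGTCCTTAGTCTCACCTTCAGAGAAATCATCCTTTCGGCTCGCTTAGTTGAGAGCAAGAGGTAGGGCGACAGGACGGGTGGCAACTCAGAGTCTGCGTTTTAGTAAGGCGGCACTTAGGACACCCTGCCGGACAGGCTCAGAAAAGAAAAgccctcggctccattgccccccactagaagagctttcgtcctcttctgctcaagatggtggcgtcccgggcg
Hadhb, chr5:30155003-30155302, plus strand: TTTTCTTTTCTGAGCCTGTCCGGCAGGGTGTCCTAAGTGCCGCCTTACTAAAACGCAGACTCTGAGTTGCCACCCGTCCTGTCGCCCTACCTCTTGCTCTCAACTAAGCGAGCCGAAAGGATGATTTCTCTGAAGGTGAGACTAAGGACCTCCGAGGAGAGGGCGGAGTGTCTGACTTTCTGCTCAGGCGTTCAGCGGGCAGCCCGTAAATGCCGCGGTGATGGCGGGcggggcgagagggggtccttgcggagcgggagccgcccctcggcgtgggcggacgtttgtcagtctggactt

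**Figure D2:**
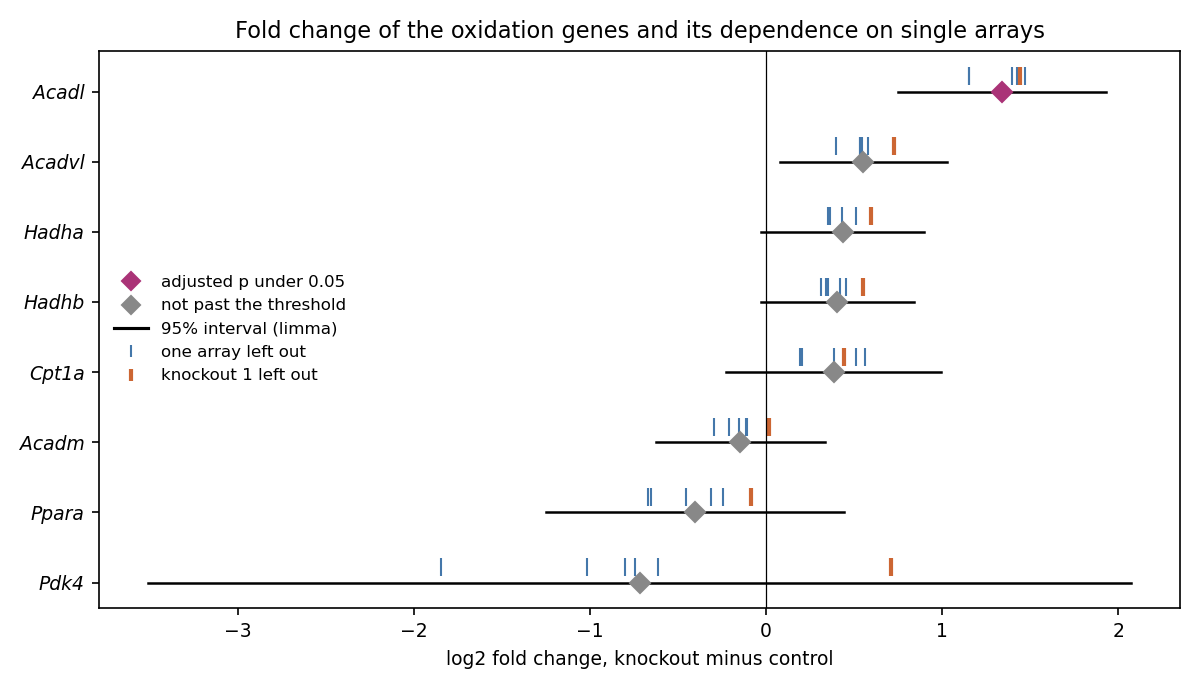
Log2 fold change of each oxidation gene, knockout minus control (x axis); diamonds are values from all 6 arrays, lines their 95% intervals from limma, and ticks the values with 1 array left out. Acadl lies at 1.34 with every tick to the right of 1, and for Pdk4 the tick without knockout 1 is at 0.71, across 0 from the value with all arrays, -0.72.

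Other enzymes of mitochondrial beta-oxidation included 3 of 21 measured that fell and 0 that rose (14.9% of all genes passed), with a median log2 fold change of 0.0065. Pcca, a subunit of propionyl-CoA carboxylase, which handles the end of odd-numbered chains, had -0.93 ± 0.18 (limma adjusted p = 0.0200) and -0.40 on its dimmer probe. Eci1, the isomerase for unsaturated fatty acids, read 4.97, 4.80 and 4.76 in the controls and 4.07, 3.96 and 4.24 in the knockouts, a difference of -0.76 ± 0.16 (limma adjusted p = 0.0248). Hadh, the dehydrogenase for short-chain hydroxyacyl-CoA, chosen after its values were seen, read 6.60, 6.57 and 6.38 in the controls and 5.48, 5.72 and 5.91 in the knockouts, a difference of -0.82 ± 0.17 (limma adjusted p = 0.0272). All knockouts were below all controls for these 3. The falls depended on single arrays: leaving out any control or knockout 2, 0 of the 21 passed (limma adjusted p of Hadh 0.0655 to 0.114), and leaving out knockout 1, 3 rose and 5 fell, where 29.8% of all genes passed.

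Peroxisomes shorten chains too long or branched for mitochondria. Of 18 measured peroxisomal genes 0 passed in limma. At an unadjusted p under 0.05, 3 were higher and 2 lower, where 2194 and 2425 of all 13496 genes were. Without knockout 1, 4 of the 18 rose and 1 fell, where 29.8% of all genes passed.

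Ketone bodies are made in mitochondria from acetyl-CoA, the product of beta-oxidation. Bdh1, which interconverts acetoacetate and beta-hydroxybutyrate, read 5.84, 5.85 and 5.77 in the controls and 5.23, 4.85 and 4.83 in the knockouts. The controls were tight and the groups separate. Bdh1 had a log2 fold change of -0.85 ± 0.17 (limma adjusted p = 0.0219), with -0.77 on its other probe. The call held without knockout 1 and was lost on leaving out any other array, at a limma adjusted p of 0.0540 to 0.0938. The list of ketone body genes had 9 measured members and a median of -0.20.

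Ppara encodes the receptor. Its brighter probe read 3.89, 3.2 and 4.02 in the controls and 2.66, 3.83 and 3.40 in the knockouts. Knockout 1 was the lowest array, while knockouts 2 and 3 lay within the range of the controls. The log2 fold change was -0.40 ± 0.35 (95% interval -1.25 to 0.44; limma adjusted p = 0.448), and -0.44 on the dimmer probe. Leaving out knockout 1 brought it to -0.083.

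Among the other PPAR and RXR receptors and coregulators, 3 of 19 measured genes fell and 0 rose in limma (6 lower and 0 higher at an unadjusted p under 0.05), with a median of -0.25. Klf15, a glucocorticoid-responsive transcription factor, read 0.12, -0.091 and -0.72 in the controls and -5.68, -3.87 and -5.22 in the knockouts. It exceeded background in the 3 controls and in 0 knockouts, so it entered the test through the controls alone, and the data give only a bound, at least 13.1-fold lower. The bound sets the control mean against, per knockout array, the higher of Klf15's own signal and the lowest signal clearly over background. Lpin1, a phosphatidate phosphatase that also acts as a coactivator with Ppara, had -2.30 ± 0.31 (limma adjusted p = 0.00667), with 2 of 3 knockout arrays over background. Lpin1 passed on leaving out any single array. Restricting the list to genes over background on all 6 arrays left 1 of 17 that fell.

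Ppargc1a, the coactivator PGC-1alpha, chosen after its values were seen, read 2.83, 2.92 and 2.47 in the controls and 1.71, 0.40 and 1.57 in the knockouts. All knockouts were below all controls, with a log2 fold change of -1.51 ± 0.36 (limma adjusted p = 0.0382). That call was lost on leaving out any control or knockout 3 (adjusted p = 0.0507 to 0.125) and with slide as a term in limma (adjusted p = 0.0512). Ppard and Pparg, the sister receptors, had -0.30 ± 0.24 and 0.41 ± 0.26 (limma adjusted p = 0.400 and 0.301).

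Of 17 measured PPAR target genes outside oxidation, 1 rose and 2 fell, with a median of 0.40. Aqp7, a glycerol channel, rose by 1.35 ± 0.35 (limma adjusted p = 0.0464), with 0.60 on its other probe. Ucp2 and Ucp3, which encode uncoupling proteins, had -0.61 ± 0.16 and -0.57 ± 0.15 (limma adjusted p = 0.0452 and 0.0487). Leaving out knockout 1, 7 rose and 3 fell (29.8% of all genes passed), and leaving out any other array 0 passed in limma (adjusted p of Aqp7 0.0847 to 0.131). The lipid droplet coat gene Plin2, chosen after its values were seen, had 1.17 ± 0.37 (limma adjusted p = 0.0770).

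Pdk4 encodes a kinase that inactivates pyruvate dehydrogenase and so spares glucose. It read 2.09, 1.83 and 1.71 in the controls and -1.69, 3.41 and 1.76 in the knockouts. The controls were close together, whereas knockout 1 was the lowest and knockout 2 the highest of all 6 arrays. The SD was 0.19 among controls and 2.61 among knockouts. The log2 fold change was -0.72 ± 1.17 (95% interval -3.51 to 2.07; limma adjusted p = 0.690). It was -1.10 within the first slide, which holds both extremes, and 0.045 within the second. Leaving out knockout 1 made it 0.71, and leaving out knockout 2 made it -1.85.

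Of 13 measured genes of the pyruvate dehydrogenase complex and its regulators other than Pdk4, 1 fell and 0 rose. That gene was Pdk2, another pyruvate dehydrogenase kinase, which read 3.14, 3.04 and 3.51 in the controls and 1.88, 2.29 and 2.46 in the knockouts. All knockouts lay below all controls, with a log2 fold change of -1.02 ± 0.22 (limma adjusted p = 0.0272). It did not pass on leaving out any control or knockout 2 (adjusted p = 0.0672 to 0.0873).

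The genes whose levels over the 6 arrays lay nearest to those of Pdk4, Cpt1a and Ppara were sought among 12615 genes. The measure was the root mean square difference of log2 values, each gene centred on its own mean. Nearest to Pdk4 were Dhrs9, a retinol dehydrogenase, at 0.59, Slc16a9, at 0.62, and Sgk1, a glucocorticoid-induced kinase, at 0.65, where Pdk4 itself ranged over 5.11. All 3 were lowest in knockout 1, at -2.26, -2.24 and -2.38 from their means, which choosing them for nearness to Pdk4 favours. Dhrs9 and Slc16a9 were highest in knockout 2, as Pdk4 was, whereas Sgk1 was highest in control 2. Nearest to Cpt1a were Iba57, Srrm4 and Fam210a, at 0.085, 0.093 and 0.10, and nearest to Ppara were Sema3f, Rab43 and Micalcl, at 0.12, 0.18 and 0.18.

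**Figure D3:**
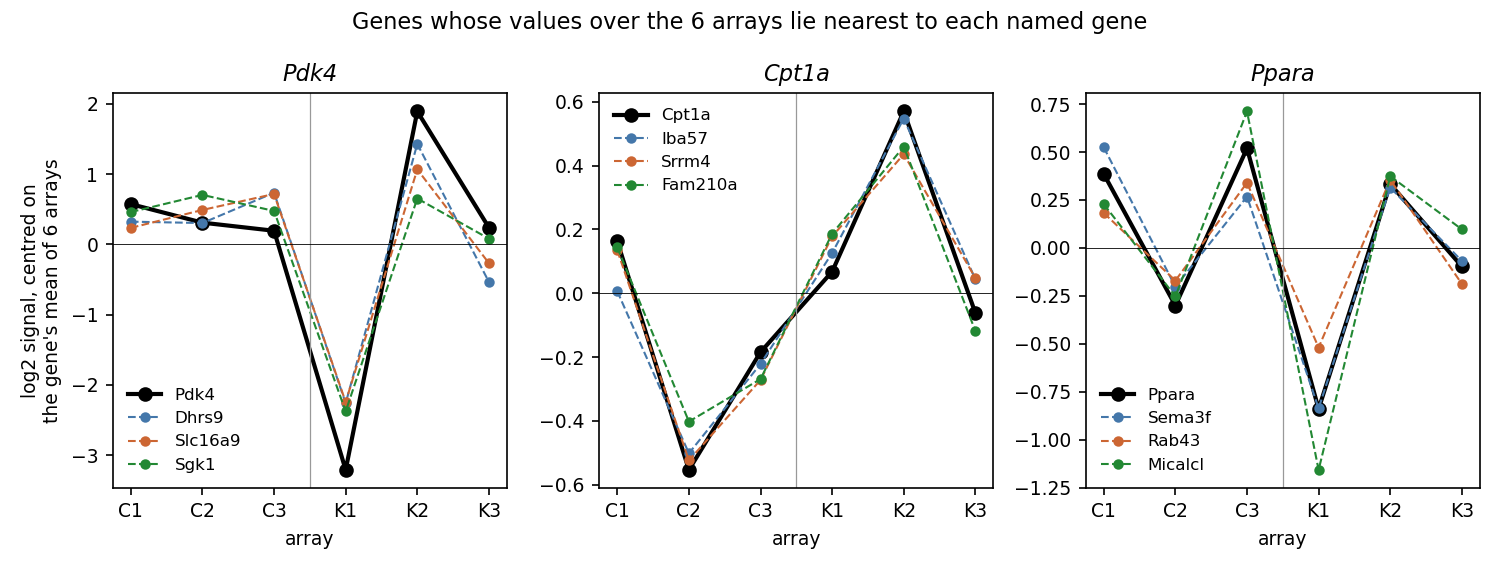
Log2 signal centred on each gene's mean over 6 arrays (y axis) in controls C1 to C3 and knockouts K1 to K3 (x axis); the thick line is the named gene and the dashed lines are the 3 genes nearest to it. Pdk4 and its 3 nearest genes drop in K1, and Pdk4 itself spans 5.11 on the log2 scale.

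On the supply side, 1 of 14 measured genes of fatty acid uptake and activation rose and 1 fell. Acsl4, the ligase that activates arachidonate, read -0.33, -0.56 and -0.025 in the controls and 1.98, 1.15 and 1.54 in the knockouts. It rose by 1.86 ± 0.26 on the log2 scale (limma adjusted p = 0.00706) and passed on leaving out any single array. Acss2, which activates acetate, had -1.42 ± 0.22 (limma adjusted p = 0.0111), a call lost without control 1 (adjusted p = 0.0535). Fabp1 and Fabp2, the fatty-acid-binding proteins of absorptive cells, chosen for that role and not by the rule for named genes, had 0.42 ± 0.25 and 0.30 ± 0.21 (limma adjusted p = 0.275 and 0.350).

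Fatty acid synthesis, the opposing pathway, had 3 of 14 measured genes that rose and 1 that fell, with a median of -0.0084. Scd1, a desaturase that makes monounsaturated fatty acids, read -5.33, -5.70 and -6.36 in the controls, all below the background limit, and -1.79, -1.03 and -0.35 in the knockouts. It entered the test through the knockouts alone, and the same kind of bound put it at least 6.60-fold higher there. Mlxipl, the glucose-responsive factor ChREBP, rose by 1.15 ± 0.16 (limma adjusted p = 0.00675), with 0.89 on its dimmer probe. Elovl6, an elongase chosen after its values were seen, rose by 0.86 ± 0.15 (limma adjusted p = 0.0163). With arrays centred on their median Elovl6 had 0.61 and did not pass (limma adjusted p = 0.100). Srebf1, a factor that drives lipid synthesis, had -0.91 ± 0.23 (limma adjusted p = 0.0466). Mlxipl passed on leaving out any single array, Elovl6 only without knockout 1 or 3 (limma adjusted p otherwise 0.0507 to 0.0800), and Srebf1 on leaving out none (0.0570 to 0.114).

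**Figure D4:**
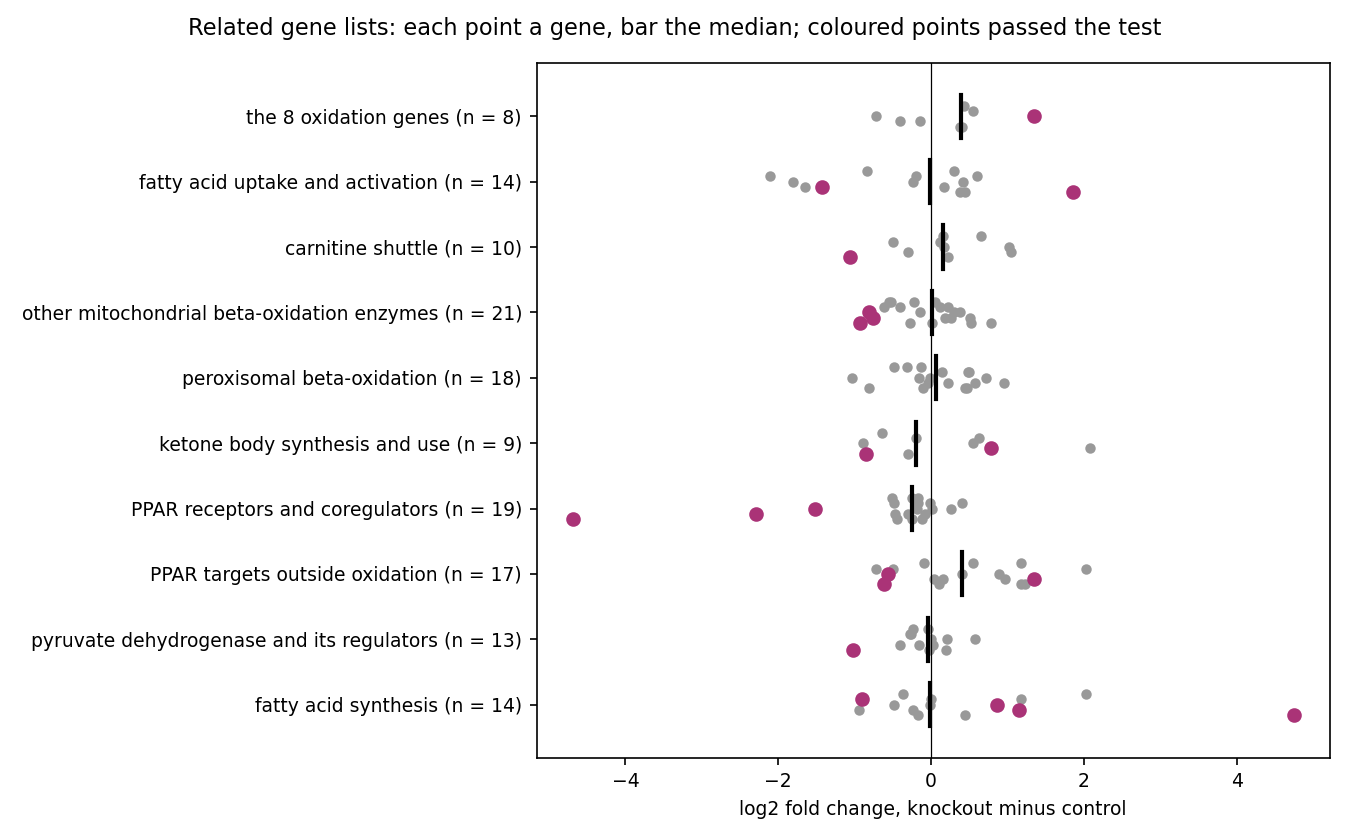
Log2 fold changes, knockout minus control (x axis), of the 8 oxidation genes and of 9 related gene lists (y axis, with the number of genes measured); each point is a gene, coloured where the limma adjusted p was under 0.05, and bars are medians. Medians lie between -0.25 and 0.40, and the points furthest out are Klf15 on the left and Scd1 on the right.

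Over the 9 lists together 19 of 135 measured genes passed, 6 higher and 13 lower, which is 14.1% where 14.9% of all genes passed. With arrays centred on their median, and the filter as reported, it was 4 higher and 18 lower. Dropping both disputed arrays kept 3 of the 19 calls, Acsl4, Klf15 and Scd1.

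The 8 oxidation genes varied more among knockouts than among controls in 6 of 8 cases, as did 68% of all genes. Knockout 1 was the lowest knockout for 7 of the 8, where it was lowest for 62.2% of the 135 related genes and 42% of all genes. Knockout 2 was the highest for 6 of the 8, where it was highest for 37% and 27.4%. The mean deviation of the 8 genes from their control means was -0.41, 0.76 and 0.34 in the knockouts and 0.16, -0.15 and -0.00033 in the controls. Leaving out knockout 1, Acadl, Acadvl, Hadha and Hadhb passed as higher. In that setting 29.8% of all genes passed in either direction, 1704 of 13495 as higher and 2319 as lower.

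Markers of cell types also varied between arrays. For 18 absorptive enterocyte markers the mean deviation was -0.69, -0.22 and 0.35 in the knockouts and -0.14, -0.093 and 0.23 in the controls. Their summed level, in multiples of the 75th percentile, was 3546 to 4627 in controls and 2785 to 5499 in knockouts, and 1 of them rose and 1 fell. Knockout 1 was the lowest array for this mean, as for that of the 8 oxidation genes. Lct, the 1 that fell, had a log2 fold change of -5.10 and lowered the enterocyte means in the knockouts. Lct read 7.99, 8.24 and 8.36 in the controls and 2.26, 1.38 and 5.64 in the knockouts. Slc2a5, the 1 that rose, had 2.10 and read 5.38, 5.27 and 6.02 in the controls and 7.30, 8.10 and 7.57 in the knockouts. On leaving out any control, knockout 2 or both disputed arrays, 0 of the 18 fell and 1 rose. Over the 18 markers the median log2 fold change was 0.15, with 11 positive and 7 negative. For 11 crypt base stem cell markers the deviation was -0.80, -1.62 and -2.40 in the knockouts. Of these 4 fell in limma, but 1 on leaving out any control, 2 without knockout 2, 9 without knockout 1 and 0 without both disputed arrays (10 lower at an unadjusted p under 0.05 with all arrays). Their summed level was 81.6 to 108 in controls and 15.5 to 50.9 in knockouts. The 16 proliferation markers stood at -0.025, -1.0 and -1.30 in the knockouts, with summed levels of 184 to 251 and 88.7 to 193. Their fold changes were negative in 16 of 16, and 0 passed in limma (9 lower at an unadjusted p under 0.05). Without knockout 1, 12 of the 16 fell, where 29.8% of all genes passed, and on leaving out any other array 0 did.

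Of 8 measured Paneth cell markers 6 fell and 1 rose in limma (7 lower at an unadjusted p under 0.05). Without control 1, control 2 or both disputed arrays 0 passed, without control 3 or knockout 2 it was 1, which fell, and with no filter on dim probes also 1. Their summed level was 1010 to 1520 in controls and 84.5 to 439 in knockouts. Leukocyte markers (9 of 12 measured, 1 rose, Cd68) summed to 119 to 270 in controls and 208 to 327 in knockouts. Cd4 went the other way, at -1.47 with every knockout below every control, but did not pass. The Cd68 call was lost without control 1, control 2 or knockout 2, and with arrays centred on their median. Fat cell markers (3 of 8 measured) summed to 1.45 to 2.04 and 1.0 to 1.81, and Adipoq, Plin1, Fabp4 and Cfd exceeded background on 0 arrays. Smooth muscle and stromal markers (2 of 12 measured, 1 rose, Acta2) summed to 27.9 to 41.3 and 46.2 to 71.1, and Myh11, Des and Col1a1 exceeded background on 0 arrays. The Acta2 call was lost on leaving out any array but knockout 1, and with arrays centred on their median. The part of these markers in the values of the oxidation genes was not tested.

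**Figure D5:**
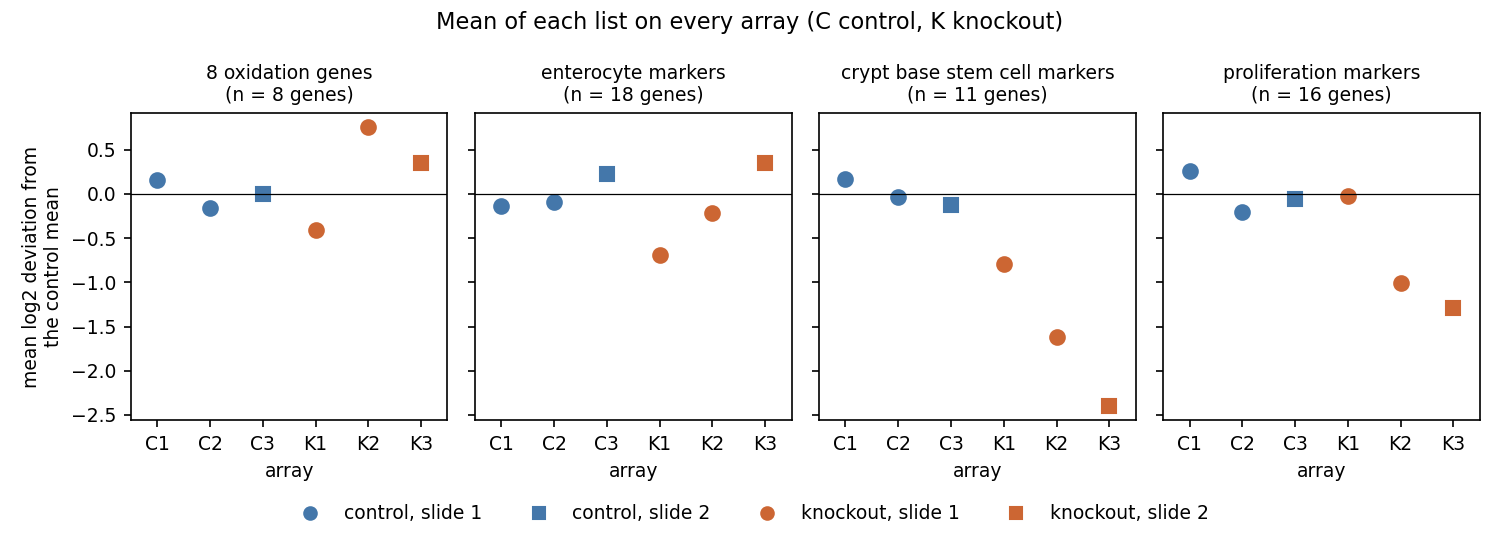
Mean log2 deviation from the control mean (y axis) of the 8 oxidation genes and of 3 marker lists in controls C1 to C3 and knockouts K1 to K3 (x axis); shapes are slides. The oxidation genes and the enterocyte markers are lowest in K1, at -0.41 and -0.69, while the stem cell markers are lowest in K3, at -2.40. The enterocyte mean includes Lct, whose log2 fold change was -5.10, and Slc2a5, at 2.10, while the median of that list was 0.15.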

How the data were processed

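RNA from crypts of 3 control and 3 knockout samples was read on Agilent one-colour arrays. Per the file headers, spot intensity was extracted and background-subtracted by the authors with Agilent Feature Extraction 12.0.3.1 (11.5.1.1 per the submitters' processing notes). The series table deposited by the authors holds log2 values. Set against the scanner values it shared the 75th percentile scaling, was centred probe by probe, and ran in the same direction; column medians were 0.20, 0.061 and -0.32 (controls) and -0.072, 0.21 and -0.18 (knockouts). The background, outlier and saturation flags used here were written by the authors' scanner software, per the file headers.

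Control spots and outlier spots were dropped, spots of a probe averaged, and each array's log2 75th percentile subtracted. Saturated spots numbered 0, and precision is limited by the number of arrays. Accessions without version were matched to a RefSeq table (GRCm38.p6), which named 33767 of 56605 probes. A probe was kept if it exceeded background in 3 or more of the 6 arrays, and the brightest stood for its gene. Groups were compared by limma 3.58.1 (R 4.3.3; lmFit, eBayes, two-sided, Benjamini-Hochberg over 13496 genes, threshold 0.05), a step tested on simulated data. Genes named are the 8, Arid1a, up to 2 passing genes per direction with the smallest p in each related list, and the 3 genes nearest to Pdk4, Cpt1a and Ppara; exceptions are marked, and 1 gene that this rule names is not reported here. The within-array ratios were chosen after the values were seen. Members and lists were chosen with earlier results of these data known. Alternatives covered the disputed labels, replicate or slide as a block, background correction, normalization, the dim-probe filter, probe choice, array weights, an intensity trend, the deposited table and each array left out.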

Additional observations from a re-analysis of the deposited data

How the results depend on the processing

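Of 21 alternatives, 20 kept the groups of the titles, and in these Acadl kept its sign in 20 and its call in 14. Acadvl, Hadha and Hadhb passed with array quality weights and without knockout 1, and in no other; Cpt1a, Acadm, Ppara and Pdk4 passed in 0 of the 21. Grouping by source name and genotype gave -0.12 for Cpt1a, -0.053 for Acadl and -0.033 for Acadvl, and 0 of all genes, 0 of the 8 and 0 of the related genes passed in limma (207, 0 and 1 at an unadjusted p under 0.05). Pdk4 turned to 0.54 with array quality weights, and ranged from -1.85 to 0.71 over single arrays left out, as Acadm did from -0.30 to 0.018, both positive only without knockout 1. The numbers that passed among all genes, the 8 and the related genes were 2011, 1 and 19 as reported. They were 320, 0 and 4 without both disputed arrays, 689, 0 and 3 on the first slide alone, 697, 0 and 6 with no filter on dim probes, and 4766, 4 and 49 with array quality weights; where 0 of the 8 passed in limma with the titles' groups, 1 did at an unadjusted p under 0.05. Over single arrays left out they ranged from 638 to 4023, from 0 to 4 and from 6 to 42, each highest without knockout 1. Of the 19 related calls 6, 7 and 7 were kept without control 1, 2 or 3, and 18, 8 and 12 without knockout 1, 2 or 3. Deviations of same-numbered samples correlated at 0.25, 0.080 and 0.35 across genes for numbers 1 to 3, so the numbers were not taken as pairs. Still, 6 of 6 samples correlated best with their own number, a hint of pairing that the labels do not state. Control 3 and knockout 3 also had a slide and scan day to themselves, so number and slide cannot be told apart there. With the replicate number as a block 2731, 1 and 25 passed, and the limma adjusted p of Acadl was 0.0198. The cause of these shifts was not tested. Cpt1a, Acadm, Acadl, Acadvl, Hadha and Pdk4 each rest on 1 probe, all over background.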
